A study of Mus musculus with 16 samples.

Results

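The data describe 8 genes, 5 of intermediate filament proteins (Krt8, Krt18, Krt19, Vim and Nes) and 3 that are known from mesothelium or stratified epithelium (Msln, Anxa8 and Sprr1a), in mouse endothelial cells with and without VE-cadherin. The members are all probe sets annotated to these genes on both chips. They number 11 of 24833 probe sets, and 8 of 13674 genes with a symbol. All 11 are on chip A and 0 on chip B, and 0 are shared with another gene. The genes were chosen by their signals in these same 4 conditions, so their values below are a description and carry no p value.

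Intermediate filaments are ropes of coiled-coil proteins that give cells mechanical strength, and each tissue uses its own set. Simple epithelia and mesothelium pair type II Krt8 with type I Krt18 or Krt19, mesenchymal and endothelial cells mostly use vimentin, and nestin co-assembles with vimentin in progenitor cells and in growing vessels. Mesothelin is a surface protein anchored by a lipid on mesothelial cells, annexin A8 binds membranes in the presence of calcium, and Sprr1a is a small proline-rich precursor of the cornified envelope of skin.

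The cells were endothelial lines from mouse embryonic stem cells. The labels give every sample the same origin, stem cells in which both copies of the VE-cadherin gene (Cdh5; the protein is abbreviated VEC) carry a null mutation, and they do not state how the VEC-positive cells regained VEC. The 4 conditions were VEC-positive confluent, VEC-positive sparse, VEC-null confluent and VEC-null sparse, and all cells had been starved for 36 h in a medium with 1% albumin before RNA extraction. Each condition was 1 labelled cRNA sample from 15 µg of total RNA, hybridised to 2 copies of chip A (MG_U74Av2) and 2 copies of chip B (MG_U74Bv2), 16 arrays in all. Whether a line is 1 clone or a pool is not stated by the labels. The 2 arrays of a condition are therefore technical copies, and every SD, SE and p below covers the spread between copies only, not between cultures.

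Values are MAS5 signals, a linear brightness per probe set after the authors' scaling of each array. A log2 difference is the difference of log2(signal + 50) with its standard error (SE) from a limma fit over the 8 arrays of a chip, and it understates changes of dim probe sets. A probe set was tested if its mean in at least 1 condition exceeded the median of its chip, which was a signal of 159.4 on chip A. It passed the threshold at a Benjamini-Hochberg adjusted p under 0.05 and a log2 change of at least 1. Of the members, 5 of 11 probe sets, 1 for each of 5 of the 8 genes, were bright enough to be tested. A gene tested only because it is high in 1 condition had to differ from the rest. The counts of members past the threshold and their median differences are therefore no evidence about the genes. The same limit holds for genes of the lists below that were bright in 1 condition only, such as Nefh, Itgb4, Synm and Krt77. Their adjusted p values and the list counts are to be read with it, beside the shares of all probe sets given for each comparison.

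Copies of a condition correlated across probe sets with r of 0.951 to 0.989, and array medians on chip A, where all members lie, were 139.75 to 174.1. The Gapdh control of that chip had a 3'/5' ratio of 0.903 to 1.01. As for the endothelial label, all 17 of 17 marker genes with a probe set were tested, and their summed signal was 86361 to 88166 in VEC-positive confluent, 35786 to 38496 in VEC-positive sparse, 74399 to 74524 in VEC-null confluent and 20144 to 20488 in VEC-null sparse arrays. Cdh5 itself had signals of 2607.2 and 2525.8 in VEC-positive confluent, 1464.4 and 1333.7 in VEC-positive sparse, 2707.2 and 2508.7 in VEC-null confluent, and 1255.4 and 1281.6 in VEC-null sparse arrays. The labels name neither the deleted part of Cdh5 nor the place of the probes in it, and these signals therefore check nothing about the labels. Conditions are named below as the labels name them.

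Promoter sequences of RefSeq (mouse GRCm38.p6), from 250 bases before to 50 after the annotated start, were found for 6 of the 8 genes. The 3 printed here belong to bright genes with different patterns: Sprr1a was high in sparse cells of both lines, Anxa8 in VEC-positive sparse cells, and Nes was read in all conditions with its highest signals in VEC-positive sparse cells. They lie at chr3:92485832-92486131 on the minus strand (Sprr1a), chr14:34085729-34086028 on the plus strand (Anxa8) and chr3:87970843-87971142 on the plus strand (Nes). Sequences run 5′ to 3′ in the direction of transcription, and capitals mark matches to the motifs searched on both strands.
Sprr1a: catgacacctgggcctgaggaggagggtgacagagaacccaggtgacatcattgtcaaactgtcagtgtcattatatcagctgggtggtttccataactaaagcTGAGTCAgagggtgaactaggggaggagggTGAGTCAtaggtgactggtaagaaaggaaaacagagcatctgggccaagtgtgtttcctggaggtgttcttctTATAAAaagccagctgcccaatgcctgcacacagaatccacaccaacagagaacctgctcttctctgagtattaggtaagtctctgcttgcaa
Anxa8: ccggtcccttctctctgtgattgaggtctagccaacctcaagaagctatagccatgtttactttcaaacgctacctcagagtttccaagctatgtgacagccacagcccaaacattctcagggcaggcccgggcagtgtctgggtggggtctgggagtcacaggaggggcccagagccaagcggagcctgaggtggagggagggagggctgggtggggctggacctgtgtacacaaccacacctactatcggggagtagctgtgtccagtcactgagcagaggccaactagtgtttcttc
Nes: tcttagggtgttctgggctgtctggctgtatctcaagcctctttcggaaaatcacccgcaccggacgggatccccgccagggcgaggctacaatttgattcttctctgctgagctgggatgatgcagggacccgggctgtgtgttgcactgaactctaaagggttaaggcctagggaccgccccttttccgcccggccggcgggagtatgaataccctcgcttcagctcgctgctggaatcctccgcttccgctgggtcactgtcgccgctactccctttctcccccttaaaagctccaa

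The motifs were TGANTCA (bound by AP-1, the Fos and Jun dimer), GGAATG (bound by TEAD factors) and TATAAA (the TATA box), which do not overlap in these 3 windows. Sprr1a held 2 copies of TGAGTCA, beginning 146 and 116 bases before the start, and TATAAA beginning 43 bases before it. Of 32851 promoters of the same length, 7.81% held TGANTCA at least once and 0.46% held it 2 or more times. GGAATG occurred in 14.7% of all promoters and TATAAA in 13.6%. Neither the Anxa8 nor the Nes window held any of the 3, and none of the 6 windows held GGAATG. A match is a run of letters and not evidence that a factor binds there.

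Of the 3 keratins, which build the filaments of epithelia, Krt19 exceeded the level filter in 1 condition and Krt8 and Krt18 in none. Krt19, the smallest type I keratin, had signals of 4.2 and 7.0 in VEC-positive confluent, 861.8 and 947.6 in VEC-positive sparse, 5.3 and 4.3 in VEC-null confluent, and 3.3 and 4.5 in VEC-null sparse arrays. The VEC-positive sparse arrays lay far above the rest, and the other 3 conditions overlapped one another. The mean was 904.7 ± 60.7 in VEC-positive sparse against 3.9 ± 0.85 in VEC-null sparse cells (SD, n = 2 copies each), a log2 difference of 4.15 (SE 0.19). Between VEC-positive confluent and VEC-positive sparse cells the log2 difference was -4.10 (SE 0.19). In VEC-null cells the density difference of Krt19 was 0.02 (SE 0.19). Since all but 1 condition had almost no signal, the size of these differences depends on the offset: without one the log2 difference was 7.87 between the sparse lines, and with an offset of 200 it was 2.44.

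A second Krt19 probe set was below the level filter and read 4.8 and 5.7 in VEC-positive confluent, 74.9 and 20.9 in VEC-positive sparse, 6.4 and 7.6 in VEC-null confluent, and 13.1 and 5.6 in VEC-null sparse arrays. Its highest signals were also in VEC-positive sparse cells, where its 2 copies differed widely. Krt8, the type II keratin that pairs with Krt18 and Krt19, had 24.5 and 27.2 in VEC-positive confluent, 41.6 and 34.6 in VEC-positive sparse, 50.9 and 41.6 in VEC-null confluent, and 48.3 and 38.3 in VEC-null sparse arrays. VEC-positive confluent cells were lowest, and the other 3 conditions overlapped.

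Krt18, the type I partner of Krt8, had 67.4 and 71.5 in VEC-positive confluent, 45.3 and 37.3 in VEC-positive sparse, 76.1 and 73.8 in VEC-null confluent, and 54.1 and 45.5 in VEC-null sparse arrays by the brighter of its 2 probe sets. The confluent arrays of each line lay above the sparse arrays of that line. The other Krt18 probe set ranged from 1.1 to 12.8. Its conditions overlapped, except VEC-positive confluent, at 1.6 and 2.1, and VEC-null sparse, at 5.7 and 12.8. The Krt8 and Krt18 probe sets therefore did not share the Krt19 pattern, and all 3 lay below the level filter in every condition, so no test was made of them.

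**Figure D1:**
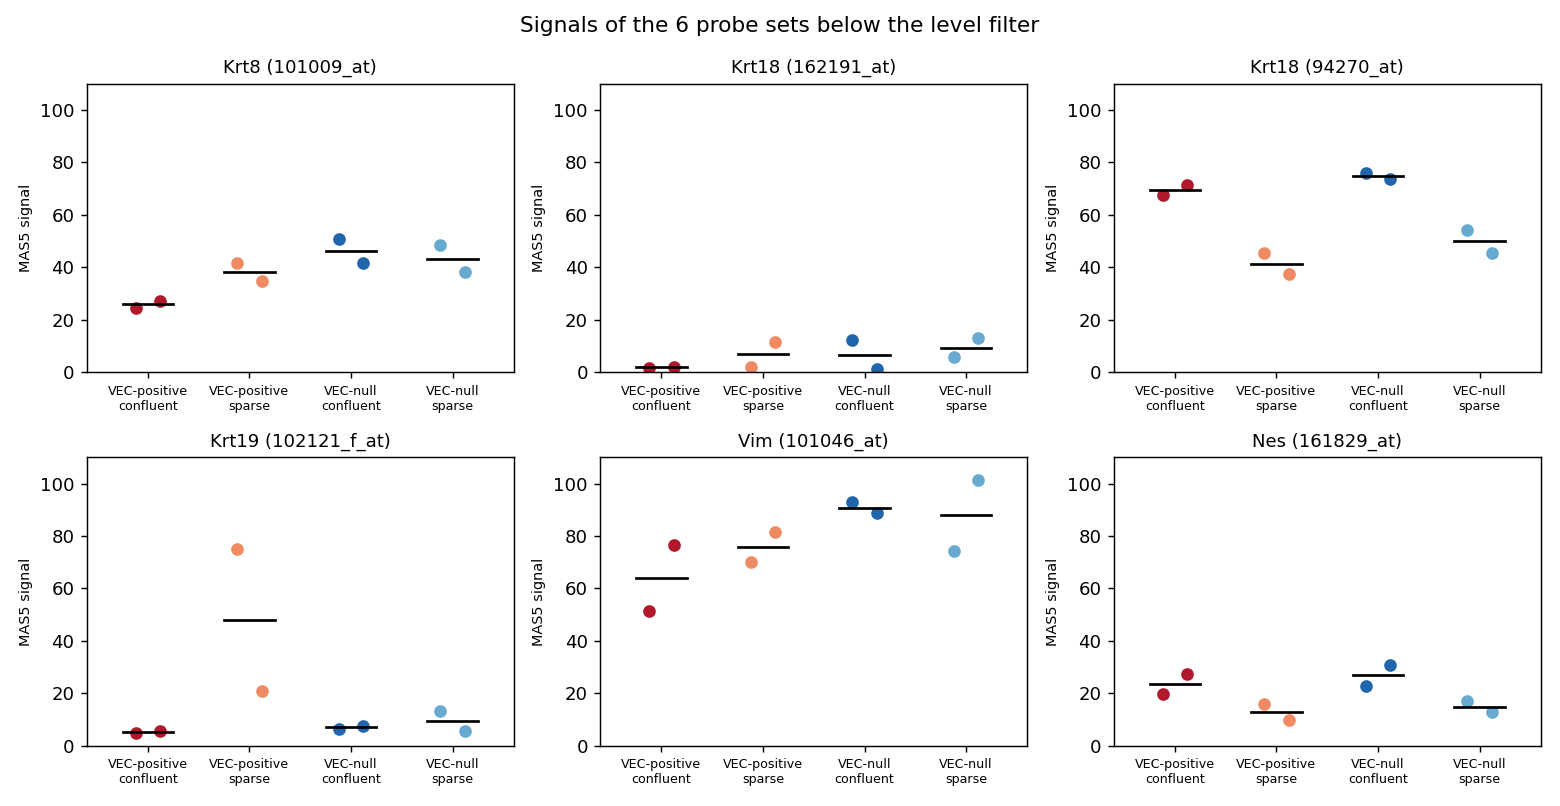
MAS5 signal (linear axis from 0) of the 6 member probe sets below the level filter in the 4 conditions; points are the 2 array copies and black lines their mean. All points lie at or below 101.5, the highest being Vim in VEC-null sparse cells, and the second Krt19 probe set reaches 74.9 in 1 VEC-positive sparse array.

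Nes and Vim encode nestin and vimentin, the filament proteins of progenitor and mesenchymal cells. Nes had signals of 2395.8 and 2595.5 in VEC-positive confluent, 6879.0 and 7044.6 in VEC-positive sparse, 1428.3 and 1765.2 in VEC-null confluent, and 2175.4 and 2135.8 in VEC-null sparse arrays. No 2 conditions overlapped, and the order from the top was VEC-positive sparse, VEC-positive confluent, VEC-null sparse and VEC-null confluent. The mean was 6962 ± 117 in VEC-positive sparse against 2156 ± 28.0 in VEC-null sparse cells (SD, n = 2 copies each), a log2 difference of 1.67 (SE 0.10), or 3.18-fold on the offset scale. Between confluent cells the log2 difference of VEC-positive from VEC-null was 0.63 (SE 0.10). The confluent minus sparse difference of Nes was -1.46 (SE 0.10) in VEC-positive and -0.43 (SE 0.10) in VEC-null cells.

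A second Nes probe set stayed below the level filter. Its confluent signals in both lines, 19.7 to 30.9, lay above its sparse ones, 9.9 to 17.1. This is the opposite order by density from the bright probe set. Vim, normally a main filament protein of endothelium, had 1 probe set, below the level filter, with 51.4 and 76.6 in VEC-positive confluent, 70.0 and 81.7 in VEC-positive sparse, 92.8 and 88.8 in VEC-null confluent, and 74.3 and 101.5 in VEC-null sparse arrays. The VEC-null confluent arrays lay above both VEC-positive conditions, and all other pairs of conditions overlapped. Signals of different probe sets do not compare the abundance of different transcripts, so the low Vim signal is not a measure of little vimentin mRNA.

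**Figure D2:**
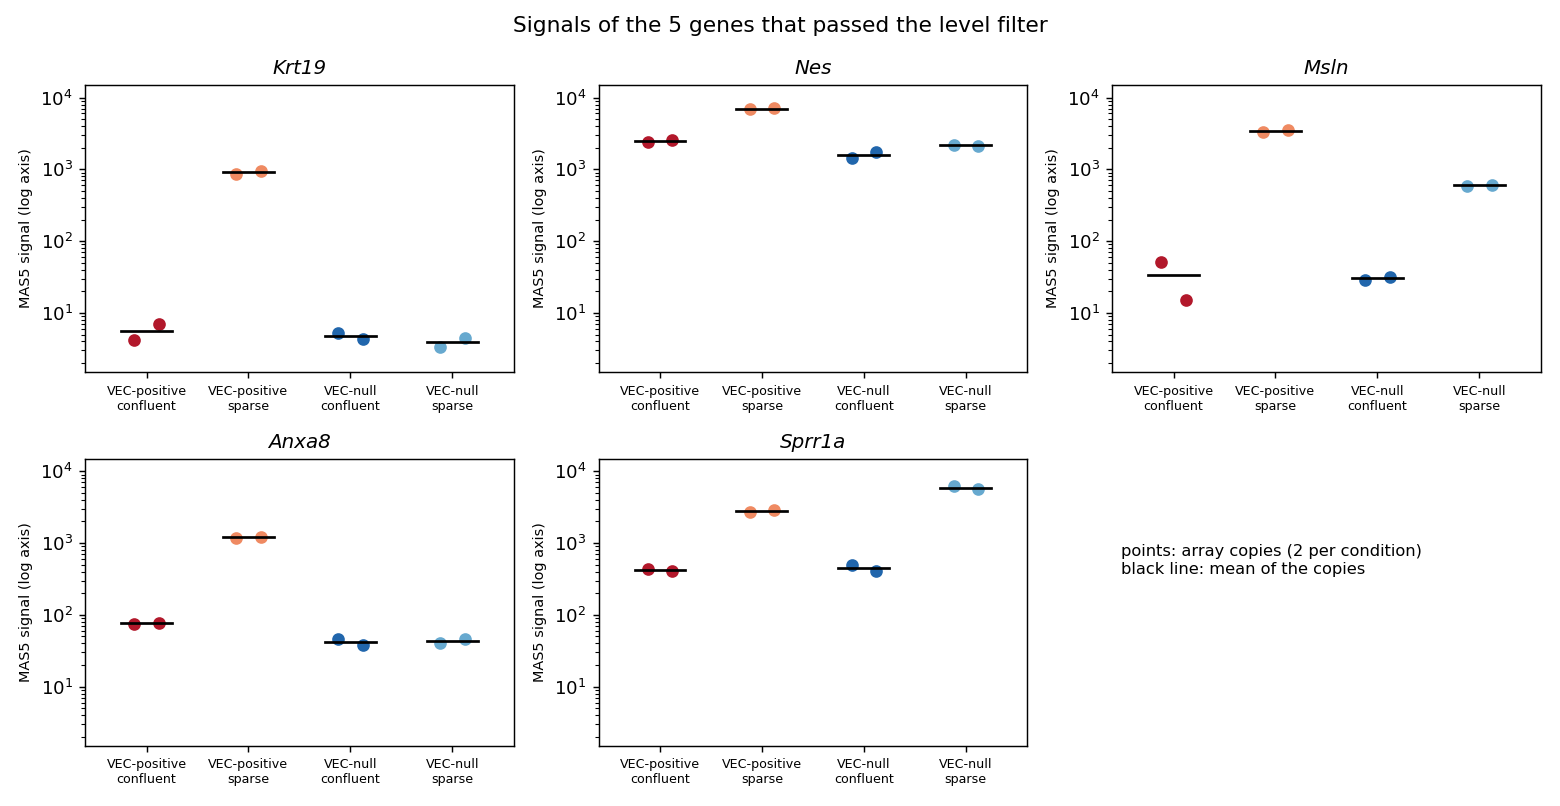
MAS5 signal (log axis) of the 5 member genes that passed the level filter in the 4 conditions; points are the 2 array copies and black lines their mean. Krt19 and Anxa8 stand out in VEC-positive sparse cells alone, with means of 904.7 and 1208, while Msln and Sprr1a are higher in sparse than in confluent cells of both lines.

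Msln, the surface protein of mesothelium, differed with density in both lines. Its signals were 51.2 and 15.2 in VEC-positive confluent, 3268.3 and 3503.1 in VEC-positive sparse, 28.3 and 32.1 in VEC-null confluent, and 594.0 and 599.5 in VEC-null sparse arrays. Both sparse conditions lay above both confluent ones, which overlapped each other. The mean was 33.2 ± 25.5 in VEC-positive confluent against 3386 ± 166 in VEC-positive sparse cells (SD, n = 2 copies each), a log2 difference of -5.40 (SE 0.19). In VEC-null cells it was 30.2 ± 2.69 in confluent against 596.8 ± 3.89 in sparse cells, a log2 difference of -3.01 (SE 0.19). Between the sparse lines the difference of VEC-positive from VEC-null was 2.41 (SE 0.19), or 5.31-fold on the offset scale. The density differences of Msln moved with the offset too, to -6.92 in VEC-positive and -4.31 in VEC-null cells without one, and to -3.95 and -1.79 with an offset of 200.

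Anxa8 binds phospholipid membranes and is known from stratified epithelia and from the late endosomes of human endothelial cells. It had signals of 75.8 and 76.6 in VEC-positive confluent, 1193.8 and 1221.9 in VEC-positive sparse, 45.9 and 38.5 in VEC-null confluent, and 40.1 and 46.5 in VEC-null sparse arrays. VEC-positive sparse cells were far above the rest, VEC-positive confluent cells were next, and the 2 VEC-null conditions overlapped. The mean was 1208 ± 19.9 in VEC-positive sparse against 43.3 ± 4.53 in VEC-null sparse cells (SD, n = 2 copies each), a log2 difference of 3.75 (SE 0.15). The confluent minus sparse difference was -3.32 (SE 0.15) in VEC-positive and -0.02 (SE 0.15) in VEC-null cells. The difference between the sparse lines was 4.81 without an offset and 2.53 with one of 200, and the VEC-positive density difference -3.99 and -2.35. Anxa8 lies on chromosome 14, where the 321 other genes tested had a median log2 difference of VEC-positive from VEC-null cells of 0.23 when confluent and 0.24 when sparse, and whether that shift bears on Anxa8 was not tested.

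Sprr1a, the cornified envelope precursor, was the 1 of the 5 tested members with its highest signal in VEC-null rather than VEC-positive cells. It had 433.9 and 411.3 in VEC-positive confluent, 2714.3 and 2890.4 in VEC-positive sparse, 497.8 and 413.4 in VEC-null confluent, and 6256.7 and 5612.1 in VEC-null sparse arrays. The confluent conditions overlapped, and both sparse ones lay above them. The confluent minus sparse log2 difference was -2.59 (SE 0.11) in VEC-positive and -3.57 (SE 0.11) in VEC-null cells, 6.03-fold and 11.9-fold on the offset scale. Between the sparse lines the log2 difference of VEC-positive from VEC-null was -1.07 (SE 0.11), a value close to the threshold of 1.

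The differences of the tested members by VEC were smaller in confluent than in sparse cells. Krt19, Anxa8 and Msln passed the level filter through sparse conditions only, which favoured this order. When confluent, 0 of the 5 tested members passed in VEC-positive against VEC-null cells, where 7.93% of all probe sets passed, and their median log2 difference was 0.02 against -0.03 over all probe sets. The largest of their differences, Nes at 0.63 and Anxa8 at 0.45, were below the threshold. When sparse, 4 members were higher (Krt19, Anxa8, Msln and Nes) and Sprr1a was lower past the threshold, beside 5.43% of all probe sets higher, 4.27% lower and 9.7% in either direction, with a median of 2.41 against -0.03. Equalising the array medians brought Sprr1a just under the threshold and left 4 members past the threshold. As these contrasts chose the genes, nothing is read from the counts, the medians or this order.

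By density, all 5 tested members were lower in confluent than in sparse VEC-positive cells, beside 7.22% of all probe sets that were lower past the threshold and 15.4% in either direction, with a median of -3.32 against 0.02 over all. In VEC-null cells 2 were lower past the threshold, Msln and Sprr1a, beside 7.41% of all probe sets that were lower and 16.5% in either direction. The density responses differed between the lines past the threshold for 4 members, Krt19, Anxa8, Msln and Nes, beside 6.34% of all probe sets in that direction and 12.2% in either. Their VEC-positive minus VEC-null differences in density response were -4.12 (SE 0.26), -3.30 (SE 0.22), -2.39 (SE 0.27) and -1.03 (SE 0.15), and that of Sprr1a was 0.97 (SE 0.15). Nes and Sprr1a lie near the threshold of 1, and leaving out single arrays gave 3 to 5 members. Quantile normalisation brought Nes to -0.94, under the threshold, and Sprr1a to 1.01, over it. The comparisons share arrays, above all the VEC-positive sparse ones, so the values are not independent of one another. As RNA was taken from whole cultures, fewer cells that express a gene and less of its RNA per cell cannot be told apart.

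**Figure D3:**
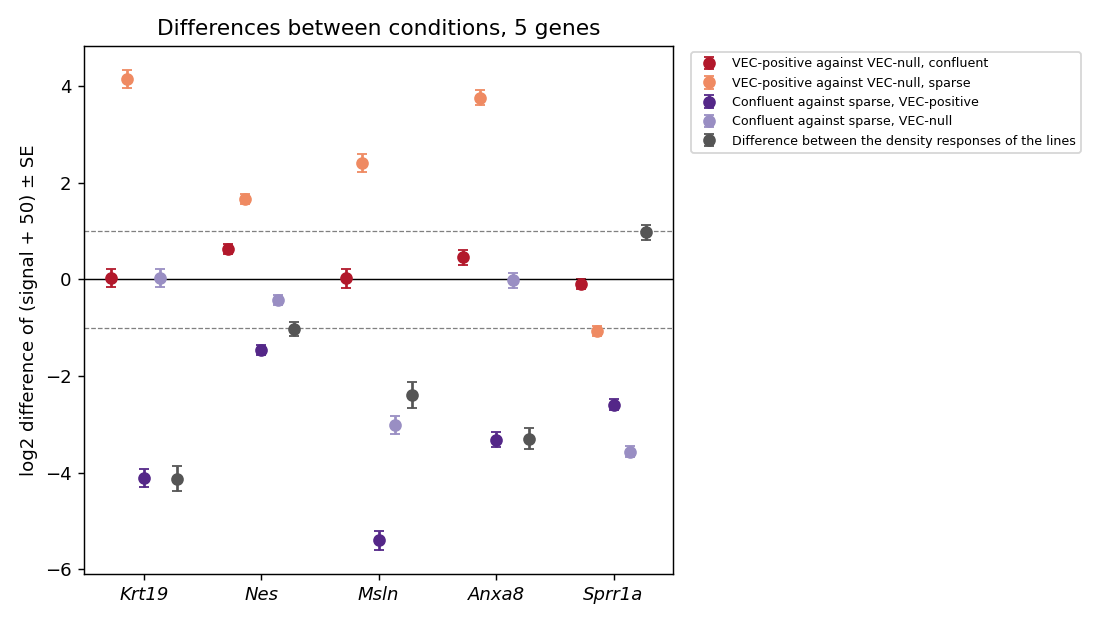
Log2 difference of (signal + 50) with its SE in the 5 comparisons for the 5 member genes that passed the level filter; positive values are higher in VEC-positive or in confluent cells. Krt19, Nes, Msln and Anxa8 lie above 0 in sparse VEC-positive against VEC-null cells, at 1.67 to 4.15, and Sprr1a lies at -1.07.

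Most other keratins did not pass the threshold in any comparison. Of 38 other keratin genes with a probe set, 18 were tested, and none passed by VEC in confluent cells, where 2 had an unadjusted p under 0.05 in limma. In sparse cells 1 rose, Krt77, with 249.7 and 228.0 in VEC-positive against 65.4 and 128.2 in VEC-null arrays, with a log2 difference of 1.01 (SE 0.34, limma adjusted p = 0.039). The Krt77 call was lost with offsets of 16 or 200, with no offset, with no filter on dim probe sets and without single arrays. Krt77 fell in confluent against sparse VEC-positive cells by 1.33 on the log2 scale (SE 0.34, limma adjusted p = 0.0096), a call lost with an offset of 200. Krt80 fell in VEC-null cells, with 473.7 and 482.2 in confluent against 1298.1 and 1188.6 in sparse arrays, with a log2 difference of -1.29 (SE 0.12, limma adjusted p = 2.1e-05). The summed signal of the 38 genes was 5397 to 6084 in VEC-positive sparse arrays, within the range of 5212 to 6641 in VEC-positive confluent arrays and overlapping that of 5874 to 5988 in VEC-null sparse arrays. Of the 38, 20 were below the level filter, so this sum too mixes dim with brighter signals.

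Other intermediate filament genes moved in both directions. Of 15 with a probe set 8 were tested, and 5 passed between confluent and sparse VEC-positive cells, 2 higher and 3 lower. Nefh, the heavy neurofilament subunit, had 303.0 and 305.5 in VEC-positive confluent against 46.6 and 27.0 in VEC-positive sparse arrays, with a log2 difference of 2.04 (SE 0.22, limma adjusted p = 4.2e-05). Synm, synemin, which co-assembles with vimentin and desmin, had 548.5 and 685.5 in VEC-positive sparse against 65.9 and 184.0 in VEC-null sparse arrays, with a log2 difference of 2.01 (SE 0.40, limma adjusted p = 0.0034). Synm was thus high in the same condition as Krt19, and it fell in confluent against sparse VEC-positive cells by 1.42 (SE 0.40, limma adjusted p = 0.016), a call lost without 1 VEC-positive confluent or 1 VEC-positive sparse array. Its 2 other tested probe sets gave 1.57 and 1.26 by VEC in sparse cells. By density in VEC-positive cells 1 did not pass, at -0.81 (limma adjusted p = 0.16), and 1 passed, at -1.27 (limma adjusted p = 0.0086). Iffo1, a filament family orphan, rose in confluent over sparse VEC-positive cells by 1.87 (SE 0.17, limma adjusted p = 1.7e-05), while Iffo2 fell by 1.16 (SE 0.13, limma adjusted p = 6.9e-05) and Nefl, the light neurofilament subunit, by 1.12 (SE 0.16, limma adjusted p = 0.00039).

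In confluent cells 3 passed by VEC, by the probe set chosen to represent each gene. Nefh at a log2 change of 1.79 and Iffo1 at 1.23 were higher in VEC-positive than in VEC-null cells, and Nefl at -1.40 was lower. Lmnb1, a lamin of the nuclear envelope, had 191.8 and 170.4 in VEC-positive sparse against 1075.4 and 977.8 in VEC-null sparse arrays, with a log2 difference of -2.22 (SE 0.12, limma adjusted p = 2e-06). By the same choice of probe sets it was also the 1 gene of this list to pass by density in VEC-null cells, at -1.85. A second Lmnb1 probe set disagreed, with log2 changes of 0.12 by VEC in sparse cells and 0.31 by density in VEC-null cells, so the lamin result rests on 1 probe set. A second Nefl probe set gave the same direction by VEC in confluent cells, with -3.15.

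Desmosomes and hemidesmosomes anchor keratin filaments at the membrane, and desmoplakin (Dsp), which ties the filaments on, stayed between 33.4 and 78.7 in all arrays, below the level filter. Its 2 highest signals, 78.7 and 65.6, were in the VEC-positive sparse arrays. The same held for the dim desmosomal genes Perp, at 78.7 and 79.7, and Dsg1a, at 91.8 and 107.1. For Dsg1a 1 VEC-null confluent array came close, at 89.2. No other linker below the level filter had both of its highest signals in the VEC-positive sparse arrays. These dim genes were picked after their values were seen. The share of all dim probe sets with this pattern was not counted, so nothing is read from it. Of 20 desmosome, hemidesmosome and linker genes with a probe set 12 were tested, and 5 passed between confluent and sparse VEC-positive cells, 3 higher and 2 lower, or 4 when each gene was represented by its brightest probe set. Jup, plakoglobin, a catenin shared by desmosomes and cadherin junctions, had 3508.2 and 3313.7 in VEC-positive confluent, 1201.7 and 1329.6 in VEC-positive sparse, 2947.2 and 3373.8 in VEC-null confluent, and 265.8 and 207.5 in VEC-null sparse arrays. It rose with confluence by 1.40 in VEC-positive cells (SE 0.12, limma adjusted p = 1.2e-05) and 3.49 in VEC-null cells (SE 0.12, limma adjusted p = 3.7e-08).

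In sparse cells 2 of these linkers rose in VEC-positive over VEC-null cells, Jup by 2.20 (SE 0.12, limma adjusted p = 1.9e-06) and the desmosomal plaque protein Pkp1 by 1.84 (SE 0.20, limma adjusted p = 8.7e-05). A second tested Pkp1 probe set gave 2.34 there, and it also passed by VEC in confluent cells, at 1.29 (limma adjusted p = 0.0012). By density in VEC-positive cells the second probe set passed at -1.41 (limma adjusted p = 0.00036), where the first gave -0.61. Itgb4, the integrin of hemidesmosomes, had 341.5 and 395.6 in VEC-positive confluent against 27.3 and 29.8 in VEC-null confluent arrays, with a log2 difference of 2.41 (SE 0.20, limma adjusted p = 2.3e-05). It was the 1 linker past the threshold there by the probe set chosen to represent each gene. Itga6, its partner subunit, rose with confluence by 1.33 in VEC-positive and 2.49 in VEC-null cells. Pkp2 fell with confluence in both lines, with log2 changes of -1.36 in VEC-positive and -1.13 in VEC-null cells. Of its 2 other tested probe sets 1 did not pass in VEC-positive cells, at -0.29 (limma adjusted p = 0.39), and gave -1.31 in VEC-null cells. The linker Ppl, periplakin, fell by 1.28 in VEC-positive cells.

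**Figure D4:**
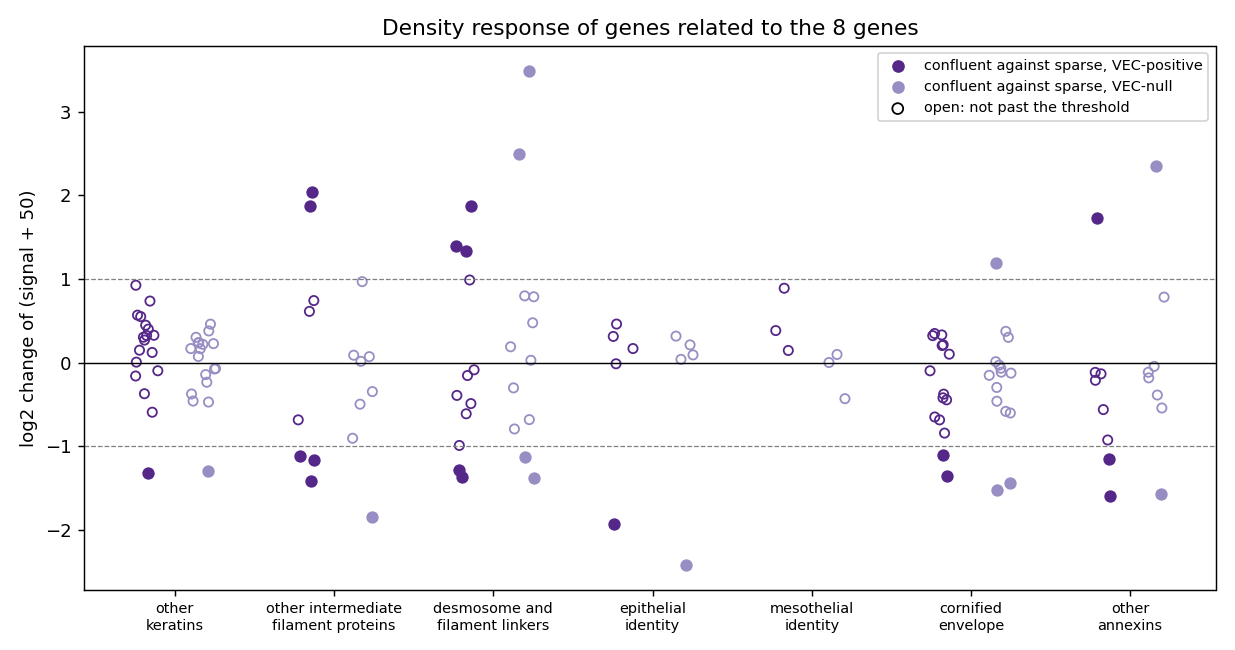
Log2 change of (signal + 50), confluent against sparse, of the tested genes in 7 related lists for VEC-positive and VEC-null cells; each point is 1 gene, and open points did not pass the threshold. Points lie on both sides of 0 in most lists, with Jup the highest at 3.49 in VEC-null cells.

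Among markers of epithelium, most were below the level filter, and none that was tested was higher past the threshold in VEC-positive than in VEC-null sparse cells. Epcam, an epithelial adhesion protein, read 5.7 to 26.9 and the claudin Cldn7 3.3 to 11.8 over all 8 arrays. Of 29 epithelial genes with a probe set only 5 were tested, and Klf5 was the 1 that passed by density, with log2 changes of -1.92 in VEC-positive and -2.42 in VEC-null cells. It had 135.7 and 113.9 in VEC-positive confluent against 590.4 and 634.3 in VEC-positive sparse arrays. Ovol1, an epithelial transcription factor, had 783.4 and 1000.4 in VEC-positive sparse arrays and did not pass in any comparison. Cdh1, E-cadherin, had 286.2 and 351.8 in VEC-positive sparse against 350.5 and 259.7 in VEC-null sparse arrays and did not pass in any comparison. The summed signal of the 29, of which 24 were below the level filter, mixes dim with brighter signals. It was 2826 to 3250 in VEC-positive sparse, 2636 to 3314 in VEC-positive confluent, 3009 to 3194 in VEC-null confluent and 3479 to 3599 in VEC-null sparse arrays. The range in VEC-positive sparse cells thus did not lie above that of any other condition, and none of the 5 passed by VEC in either density (unadjusted p under 0.05 in limma for 0 of 5 when confluent and 1 of 5 when sparse).

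Of the mesothelial markers, Wt1, the defining transcription factor, read 30.6 to 77.9 and the uroplakin Upk3b 50.8 to 155.6, both below the level filter. Of 13 such genes 3 were tested, and Gata4 was the 1 that passed, with 491.0 and 581.6 in VEC-positive confluent against 264.0 and 186.8 in VEC-null confluent arrays, with a log2 difference of 1.10 (SE 0.18, limma adjusted p = 0.0013). That call was lost without 1 VEC-null confluent or 1 VEC-positive confluent array. A second tested Gata4 probe set also passed there, at 2.01 (limma adjusted p = 0.00015). By density in VEC-null cells the second probe set passed at -1.12 (limma adjusted p = 0.0025), where the first gave -0.43. The summed signal of the 13 was 1035 to 1108 in VEC-positive sparse arrays, the lowest of the 4 conditions, against 1200 to 1312 in VEC-null sparse arrays. Of the 13, 10 were below the level filter, so the sum mixes dim with brighter signals. The chip A medians were also lowest in VEC-positive sparse arrays, at 139.75 and 143.7, and their part in the low sum was not tested. Where Msln was high, Wt1 and Upk3b thus stayed below the level filter, and calling these genes mesothelial-type goes by what Msln is known for, not by other mesothelial markers in these cells.

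Lists of other cell types were read beside the members as well. Among smooth muscle and fibroblast genes, 8 of 13 tested, S100a4 had 8708.2 and 10244.9 in VEC-positive sparse against 1143.4 and 1149.0 in VEC-null sparse arrays, with a log2 difference of 2.99 (SE 0.14, limma adjusted p = 6.2e-07), and Dcn rose by 1.75. Acta2, smooth muscle actin, had 128.8 and 137.4 in VEC-positive sparse against 357.7 and 385.0 in VEC-null sparse arrays, with a log2 difference of -1.20 (SE 0.16, limma adjusted p = 0.00034). The summed signal of the 13 was 10774 to 12739 in VEC-positive sparse, 3776 to 4170 in VEC-positive confluent, 4519 to 4768 in VEC-null confluent and 3397 to 3672 in VEC-null sparse arrays, and most of it in VEC-positive sparse arrays was S100a4. Their part in the member values was not tested. Blood cell genes summed to 1000 to 1096 in VEC-positive confluent, 1069 to 1170 in VEC-positive sparse, 1429 to 1897 in VEC-null confluent and 865 to 878 in VEC-null sparse arrays. Of them Cd68 was lower in VEC-positive than in VEC-null confluent cells, with a log2 change of -1.5, and it rose with confluence by 1.55 in VEC-null cells. Of 10 neural progenitor genes, the usual company of nestin, 2 were tested and 0 passed in any of the 5 comparisons, with 1 at an unadjusted p under 0.05 in limma by density in VEC-positive cells. Of 10 embryonic stem cell genes 1 was tested, and it passed in none of the 5, with an unadjusted p under 0.05 in limma in 0. Gata3, which also marks trophoblast epithelium, fell with confluence, with log2 changes of -1.53 in VEC-positive and -1.60 in VEC-null cells, while a second tested Gata3 probe set gave -1.99 in VEC-positive and -0.76 (limma adjusted p = 0.11) in VEC-null cells. The extraembryonic endoderm gene Dab2 rose with confluence by 1.27 in VEC-positive cells, and its log2 change in VEC-null cells was 0.73. Both other tested Dab2 probe sets rose in both lines, by 1.75 and 1.69 in VEC-positive and by 2.0 and 1.38 in VEC-null cells.

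Relatives of Sprr1a in the cornified envelope that passed by density had log2 changes between -1.52 and 1.19. Of 31 genes with a probe set 15 were tested, and 2 passed by density in VEC-positive cells and 3 in VEC-null cells. The late envelope gene Lce1f had 480.7 and 507.6 in VEC-positive confluent against 1256.8 and 1434.2 in VEC-positive sparse arrays, with a log2 difference of -1.36 (SE 0.17, limma adjusted p = 0.00011), and it fell by 1.52 in VEC-null cells. A second Lce1f probe set did not pass, with -0.47 (limma adjusted p = 0.34) in VEC-positive and -0.43 (limma adjusted p = 0.4) in VEC-null cells. Lce1h fell with log2 changes of -1.11 in VEC-positive and -1.44 in VEC-null cells, the first call being lost without 1 VEC-positive array of either density. Sprr2b rose in confluent over sparse VEC-null cells by 1.19 (SE 0.17, limma adjusted p = 0.00028). Sprr1b, the closest named relative, had 2243.8 and 2719.7 in VEC-positive confluent, 3296.8 and 3151.8 in VEC-positive sparse, 2570.3 and 2926.3 in VEC-null confluent, and 4245.9 and 3393.6 in VEC-null sparse arrays, with log2 changes by density of -0.38 and -0.46 that missed the threshold. Sprr3 was higher in VEC-positive than in VEC-null cells, by 1.10 when confluent and 1.67 when sparse. Probe sets of this family can share similar sequences, so their signals may not be fully separate.

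Of 10 other annexins 8 were tested. Anxa6 rose with confluence by 1.72 in VEC-positive cells (SE 0.14, limma adjusted p = 6e-06) and 2.35 in VEC-null cells (SE 0.14, limma adjusted p = 6.8e-07). Anxa3 fell in both lines, with log2 changes of -1.59 in VEC-positive and -1.57 in VEC-null cells. Anxa2 fell in VEC-positive cells with a log2 change of -1.16, and its value in VEC-null cells was -0.54. Anxa2, whose product links membranes to actin, had 8514.9 and 8586.8 in VEC-positive confluent against 19983.1 and 18327.9 in VEC-positive sparse arrays. By VEC in sparse cells Anxa7 rose by 1.28 (SE 0.27, limma adjusted p = 0.0043), a call lost without 1 VEC-null sparse array, and Anxa2 had a log2 change of 0.62. None of the 8 differed past the threshold in its density response between the lines, where 4 had an unadjusted p under 0.05 in limma.

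Some calls of the related genes rest on the offset. With an offset of 200 those of Nefh, Nefl, Gata4 and Sprr3 by VEC in confluent cells, of Sprr3, Anxa7 and Acta2 by VEC in sparse cells, of Lce1h and Gata3 by density in VEC-positive cells, and of Pkp2, Sprr2b and Gata3 by density in VEC-null cells were lost. The Anxa2 call by density was lost with quantile normalisation, and those of Sprr3 in confluent cells and Sprr2b without single arrays.

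The genes whose pattern was most like that of a member were taken by Pearson r over the 8 arrays of chip A, among 562 probe sets with condition means spanning at least 2 on the log2 scale. With 4 conditions of 2 copies, a high r says only that the same conditions were high. Krt19 was nearest to Wwc1 (r = 0.998), Anxa8 (r = 0.994) and Lrp1 (r = 0.992). Wwc1, known as the scaffold Kibra, had 13.9 and 9.8 in VEC-positive confluent, 539.8 and 503.8 in VEC-positive sparse, 9 and 5.8 in VEC-null confluent, and 9.1 and 13.3 in VEC-null sparse arrays. Anxa8 was nearest to Wwc1 (r = 0.995), Krt19 (r = 0.994) and Lrp1 (r = 0.993). Nes was nearest to another probe set of Wwc1 (r = 0.993), Cadm1 (r = 0.990) and Dap (r = 0.988).

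Msln was nearest to Crct1 (r = 0.998), the follistatin gene Fst (r = 0.995) and Fez2 (r = 0.994). Sprr1a was nearest to the transcription factor Klf5 (r = 0.999), the AP-1 subunit Fosl1 (r = 0.997) and the serine synthesis enzyme Psat1 (r = 0.996). Fosl1 had 310.5 and 268.7 in VEC-positive confluent, 1849.9 and 1940.4 in VEC-positive sparse, 295.9 and 309.7 in VEC-null confluent, and 3353.8 and 3360.9 in VEC-null sparse arrays, so its order of conditions was that of Sprr1a, with the confluent ones overlapping. Among the members, Krt19 and Anxa8 were most alike (r = 0.994) and Anxa8 and Sprr1a least (r = 0.311), while Msln had r of 0.834 with Krt19 and 0.808 with Sprr1a.

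**Figure D5:**
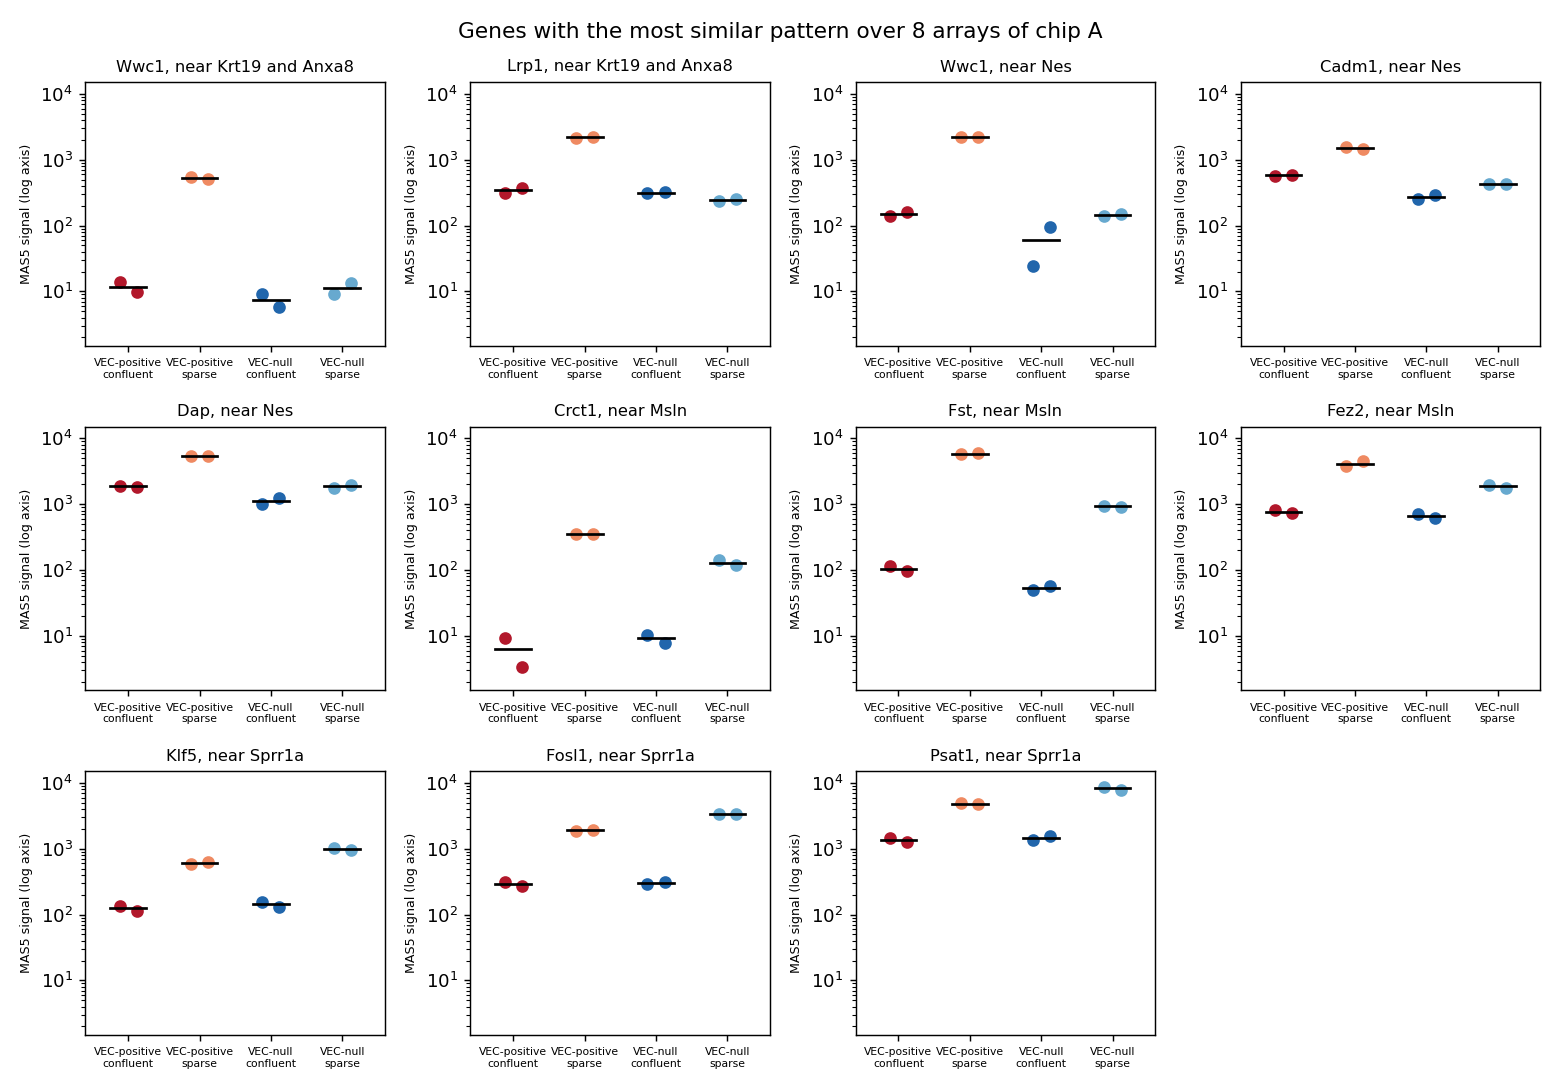
MAS5 signal (log axis) of the genes most like each member over the 8 chip A arrays in the 4 conditions; points are the 2 array copies and black lines their mean. The genes nearest Krt19 and Anxa8 peak in VEC-positive sparse cells, and those nearest Sprr1a, such as Fosl1 with a mean of 3357, peak in VEC-null sparse cells.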

How the data were processed

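The deposited tables hold linear intensity values, the MAS5 signal per probe set, which the authors made with default settings and a scaling target of 500 per array, per the labels. A further median normalisation that the series text names is not visible in the tables. No detection calls were used. Symbols are those of GEO's annotation of the platform: 21414 of 24833 probe sets had 1 symbol, 574 had several and 2845 had none. They were checked against RefSeq through Entrez identifiers, where 21367 matched and 0 symbols changed.

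Signals were tested as log2(signal + 50) with limma (3.58.1, under R 4.3.3), for each chip across its 8 arrays, with variances that follow the mean. The level filter kept 7006 of 12488 probe sets on chip A and 7240 of 12477 on chip B, after 66 control probe sets per chip were left out. P values were adjusted (Benjamini-Hochberg) over the 14246 kept probe sets, and the fits were tested on simulated data. The number of arrays, with 2 copies a condition, limits the precision. The representative probe set of a gene is the kept one, on chip A before chip B, with the highest mean. From each list, genes were named from the up to 4 past the threshold per comparison with the largest change. Some of these, such as Pkp4, Tek, Kdr and Icam2, are not described. For the difference in density response, all genes of the lists past the threshold are named. Ppl, Dsp, Perp, Dsg1a, Epcam, Cldn7, Cdh1, Ovol1, Wt1, Upk3b and Sprr1b were named outside this rule, after their values were seen. The nearest patterns are the 3 with the highest r. Members and lists were chosen with earlier results of these data known. Same-numbered copies did not deviate together (r of -0.089 to 0.077), so the numbers pair nothing. No column of another series was used (0). Alternatives were the offset, the filter, the normalisation, the variance model, the choice of probe set, each array left out, and the replicate number as a block.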

Additional observations from a re-analysis of the deposited data

Results flagged for a closer look

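The density response (confluent minus sparse, on the log2 scale) differed between VEC-positive and VEC-null cells for 21 of 105 tested genes of the lists. They passed the threshold of the limma interaction test by the probe set chosen to represent each gene, beside 12.2% of all probe sets. Differences are given here as VEC-positive minus VEC-null. Among filament proteins the difference was 2.59 for Lmnb1, whose second probe set gave -0.48, 1.97 for Nefh, -1.25 for Iffo2, -1.13 for Nefl, whose second probe set gave -3.09, and 1.11 for Lmnb2. Among filament linkers it was -2.09 for Jup, 1.68 for Itgb4, -1.40 for Pkp1 and -1.15 for Itga6. Gata4 had 1.32. Among genes of other cell types it was -3.34 for Col3a1, -2.57 for Pdgfrb, -1.81 for S100a4, -1.82 for Cd68 and -1.06 for Cd14, the last lost with no filter, with an offset of 200 and without single arrays. Among endothelial genes it was 5.36 for the claudin Cldn5, 4.65 for von Willebrand factor, -1.72 for Emcn, 1.26 for Mmrn2, -1.21 for Cd93 and -1.19 for Tie1, whose other tested probe set gave -0.26. Quantile normalisation lost the calls of Cd93 and Tie1. A second tested Cd93 probe set gave -1.24 in the fit as reported (limma adjusted p = 3.4e-05). Ptprb, another endothelial gene, passed by 1 probe set not chosen to represent it, at -1.49 (limma adjusted p = 0.012), while another gave -0.47. With an offset of 200 the calls of Lmnb2, Nefl, Pkp1, Itga6 and Gata4 were also lost.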

How the results depend on the processing

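No difference or change past the threshold turned its direction under the alternatives run. Member differences near 0 did: that of Krt19 by density in VEC-null cells was -0.12 with equal array medians, against 0.02 as reported, and that of Anxa8 ran from -0.075 to 0.041 when arrays were left out. Krt19, Msln and Sprr1a by VEC in confluent cells, all near 0, also took either sign. An offset of 200 cut the probe sets past the threshold to 590 and 689 for VEC-positive against VEC-null cells (confluent, then sparse), against 1129 and 1382 as reported. It cut them to 1305 and 1444 for confluent against sparse cells (VEC-positive, then VEC-null), against 2190 and 2352, and to 1017 for the difference in density response, against 1745. A filter at the 75th percentile, which tests fewer probe sets, gave 691 and 913 by VEC. Other alternatives kept these counts within 1.5 times. With the replicate block the counts were 1131, 1383, 2192, 2357 and 1742 in the same order, and the block changed no count of members. Leaving out each array in turn gave 1121 to 1173, 1349 to 1497, 2161 to 2273, 2306 to 2414 and 1650 to 1825. Members past the threshold then numbered 0, 4 to 5, 5, 2 and 3 to 5. Low signals limit Krt8, Krt18, Vim and the low conditions of Krt19 and Msln, whose log2 differences move with the offset as given beside them. With an offset of 200, 24 calls of single genes of the lists were lost and 73 held. Representing each gene by its highest probe set on either chip changed 2 of 65 list counts, that of mesothelial genes by density in VEC-null cells to 1, and that of filament linkers by density in VEC-positive cells to 4.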
